A study of Homo sapiens with 12 samples.

Results

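The difference between the dexamethasone responses of CEBPB knockout cells and of scramble control cells was described at H3K27ac peaks of RPMI 8226, an established human multiple myeloma cell line. All 12 libraries of the series entered every comparison, because the difference needs all 4 groups. They were 3 libraries of CEBPB knockout (KO) cells given 10 µM dexamethasone for 2 h, 3 of KO cells given DMSO, 3 of scramble (SCR) cells given 10 µM dexamethasone for 2 h and 3 of SCR cells given DMSO. Groups were read from the labels of each library. For each gene window or 500 bp bin the quantity was the KO response (KO dexamethasone minus KO DMSO) minus the SCR response (SCR dexamethasone minus SCR DMSO), so a positive value means a response that was more upward, or less downward, in KO cells, and can come from a gain in KO cells or a loss in SCR cells. A gene window was the span of a protein-coding gene with 25 kb on each side, and its value was the length covered by peaks. Of 19974 gene windows, the 17155 covered in at least 3 libraries were tested, and 292998 bins were covered in at least 1 library.

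H3K27ac was profiled by CUT&RUN, which cleaves and sequences the DNA next to an antibody-bound mark, with 100000 cells per assay. The series' title names the effect of C/EBPβ depletion on the enhancers' answer to dexamethasone. How the knockout was made, and whether it was kept as 1 clone or as a mixed population, is not given in the labels. Nor do they tie the 3 libraries of a group to independent cultures, and each p-value therefore measures only the spread between libraries. Each library held 41164 to 56421 peaks that covered 48.0 to 66.4 Mb, and the sequencing depth is unknown because the peak lists give positions and not reads. TNFRSF17, the gene of the plasma cell receptor BCMA, was covered in every library, by 5.78 to 10.6 kb. The window of CEBPB itself was also covered in every library, by 3.97 to 6.14 kb, which does not check a deletion in the gene.

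H3K27 acetylation marks active promoters and enhancers. Dexamethasone is a synthetic glucocorticoid that kills many myeloma cells. It binds the glucocorticoid receptor, which enters the nucleus, binds glucocorticoid response elements and recruits coactivators that acetylate histones. C/EBPβ, the product of CEBPB, is a basic leucine zipper transcription factor that can bind near the glucocorticoid receptor and is known in myeloma as a regulator of genes of the plasma cell programme.

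A promoter whose presence in a peak changed in an all-or-none way is the plainest form in which the difference can be seen at a known sequence. Of 34789 RefSeq promoters of 27057 genes, each 300 bases long with 250 before the start and 50 after it, 27 (0.0776%) were in a peak in all or in none of the libraries of every group and had a difference other than 0. The difference was positive at 9 of them and negative at 18. A promoter counted as in a peak when at least 150 bases were covered. The 250 bases before the start are shown for 5 protein-coding genes, chosen as the promoters of different patterns with a wide gap between groups. They were taken from RefSeq (GRCh38.p14), and capitals mark a match to the C/EBP motif TTGCNNAA or to AGAACA, one arm of the palindromic glucocorticoid response element, on either strand.

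PEAK3, chr19:2282176-2282425, minus strand, in a peak only in SCR cells with dexamethasone: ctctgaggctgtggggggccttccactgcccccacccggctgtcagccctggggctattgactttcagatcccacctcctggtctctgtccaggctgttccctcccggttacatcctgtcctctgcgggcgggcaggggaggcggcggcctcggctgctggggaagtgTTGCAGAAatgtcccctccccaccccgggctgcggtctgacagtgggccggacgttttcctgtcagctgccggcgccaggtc
NME4, chr16:396949-397198, plus strand, in a peak only in KO cells with DMSO: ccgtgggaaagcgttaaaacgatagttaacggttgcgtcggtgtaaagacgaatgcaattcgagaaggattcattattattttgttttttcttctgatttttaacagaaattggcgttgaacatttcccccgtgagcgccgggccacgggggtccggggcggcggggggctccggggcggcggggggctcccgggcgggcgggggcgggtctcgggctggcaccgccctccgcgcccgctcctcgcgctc
CEACAM21, chr19:41575916-41576165, plus strand, in a peak only in KO cells with dexamethasone: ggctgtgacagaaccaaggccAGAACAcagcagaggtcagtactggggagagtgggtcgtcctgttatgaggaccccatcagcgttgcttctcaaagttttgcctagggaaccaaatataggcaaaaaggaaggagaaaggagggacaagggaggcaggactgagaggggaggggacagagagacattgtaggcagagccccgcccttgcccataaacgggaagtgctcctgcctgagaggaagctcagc
MET, chr7:116671946-116672195, plus strand, out of peaks only in SCR cells with dexamethasone: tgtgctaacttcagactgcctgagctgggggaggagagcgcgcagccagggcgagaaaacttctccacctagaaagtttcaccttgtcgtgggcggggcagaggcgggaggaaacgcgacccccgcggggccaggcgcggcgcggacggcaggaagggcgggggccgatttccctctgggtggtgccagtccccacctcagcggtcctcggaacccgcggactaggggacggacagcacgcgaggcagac
TTLL8, chr22:50058299-50058548, minus strand, out of peaks only in SCR cells with DMSO: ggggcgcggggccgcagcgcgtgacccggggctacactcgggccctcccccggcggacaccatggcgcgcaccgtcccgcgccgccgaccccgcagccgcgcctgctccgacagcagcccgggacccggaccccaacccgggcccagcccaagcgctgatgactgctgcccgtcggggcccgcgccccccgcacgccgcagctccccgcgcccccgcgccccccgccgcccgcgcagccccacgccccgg

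The 300 bases of the PEAK3 promoter were covered by 0, 0 and 0 bases in KO dexamethasone, 0, 0 and 49 in KO DMSO, 300, 300 and 300 in SCR dexamethasone and 0, 0 and 0 in SCR DMSO. PEAK3 encodes a pseudokinase of the PEAK family of signalling scaffolds. At NME4, which encodes a mitochondrial nucleoside diphosphate kinase, 300, 300 and 300 bases were covered in KO DMSO and 0 in each of the other 9 libraries. CEACAM21, a gene of the carcinoembryonic antigen family, was covered by 261, 264 and 300 bases in KO dexamethasone and by 0 in the other 9. The promoter of MET, the gene of the hepatocyte growth factor receptor, was covered by 300, 300 and 293 bases in KO dexamethasone, 298, 293 and 300 in KO DMSO, 0 in each SCR dexamethasone library and 262, 262 and 299 in SCR DMSO. TTLL8, a tubulin glycylase gene, was covered over all 300 bases in 9 libraries and by 0 in the 3 SCR DMSO libraries. These were all-or-none differences at the promoter and not over the gene's window, where the log2 difference was -0.13 for PEAK3, -0.50 for NME4, -0.15 for CEACAM21, 0.44 for MET and 0.12 for TTLL8, none past the threshold (limma adjusted p of 0.900 or more).

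The whole glucocorticoid response element, AGAACA and TGTTCT with 3 bases between them, was in 1 of the 34789 promoters and in none of the 27. AGAACA alone was in 4 of the 27 (14.8%) and in 14.8% of all promoters, but 2 of the 4 are overlapping promoters of LOC105374970, which leaves 3 of 26 when overlapping promoters count once. TTGCNNAA was in 5 of the 27 (18.5%) and in 10.5% of all promoters. A match is a description of letters in this window and not evidence of binding.

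Across gene windows, the drug responses of KO and SCR cells differed at 2 of 17155 genes (0.0117%), TNFSF8 and NNMT, and at both the response was lower in KO cells. TNFSF8 encodes CD30 ligand, a cytokine of the tumour necrosis factor family, and NNMT encodes nicotinamide N-methyltransferase, a cytosolic enzyme of vitamin B3 metabolism. The test was limma on quantile-normalised log2(base pairs + 500) with Benjamini-Hochberg adjustment over all tested genes and a threshold of 0.05. No gene had a positive call by this test. Limma with its trend and robust options off added 1, ADGB, and a 100 kb window called SLC26A7 with a positive difference beside TNFSF8. With only the peaks at or above each library's median fold enrichment, PTPRN2 and TMPRSS11A had a positive and COL23A1 a negative call. TNFSF8 was not called there, and NNMT was not tested. At an unadjusted p under 0.05, limma had 470 genes higher (2.74%) and 439 lower (2.56%). The sign was positive at 8398 windows and negative at 8757, with a median log2 difference of -0.01.

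**Figure D1:**
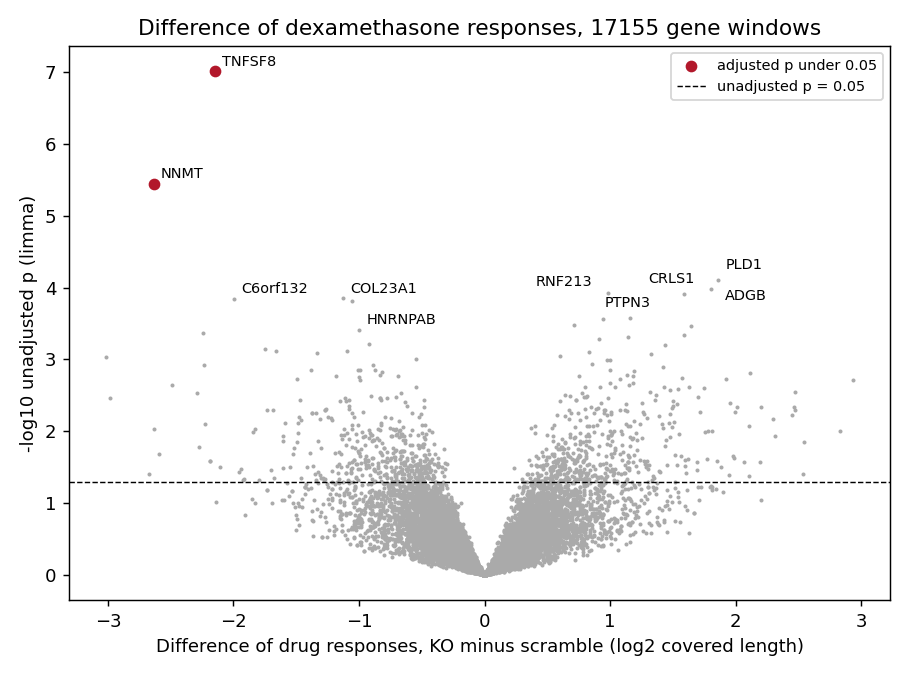
Each point is 1 of the tested gene windows. The horizontal axis gives the KO response minus the SCR response on the log2 covered-length scale, and the vertical axis the negative log10 of the unadjusted limma p. TNFSF8 and NNMT, in red, are the only windows with an adjusted p under 0.05, and the labelled grey genes are the next of smallest p in each direction.

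The window of TNFSF8 (hg38 chr9:114893343-114930595 with 25 kb on each side) was covered over 5.2, 6.14 and 6.23 kb in the KO dexamethasone libraries, 4.17, 4.49 and 5.58 kb in KO DMSO, 2.27, 2.04 and 2.31 kb in SCR dexamethasone and 0 kb in each of the 3 SCR DMSO libraries. The 6 KO libraries lay above all SCR libraries, and only in SCR cells did the drug and DMSO groups stay apart without overlap. On the log2 scale the response was 0.38 in KO cells and 2.53 in SCR cells, a difference of -2.15 ± 0.18 (SE, limma adjusted p = 0.00166). Because SCR DMSO is listed at 0, this size depends on the 500 bp added before the logarithm. In kilobases the mean response was 1.11 kb in KO cells and 2.21 kb in SCR cells.

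The coverage of TNFSF8 came from a few separate regions within the gene. The widest, chr9:114908164-114911152, was covered by 2735, 2908 and 2918 bp in KO dexamethasone, 2743, 2716 and 2815 bp in KO DMSO, 1150, 1583 and 991 bp in SCR dexamethasone and 0 in SCR DMSO. Its 2 KO groups overlapped, whereas every SCR dexamethasone library had a peak there that no SCR DMSO library had. Where present, the authors' fold enrichment of the peak was 3.06 to 3.52 in all 9 libraries that had it. A second region, chr9:114924511-114925831, was covered by 1117, 1321 and 1121 bp in KO dexamethasone, 1028, 1101 and 1058 bp in KO DMSO, 717, 0 and 1034 bp in SCR dexamethasone and 0 in SCR DMSO. At chr9:114929006-114930498, at the higher-coordinate end of the gene, the values were 485, 476 and 649 bp in KO dexamethasone, 0, 345 and 1243 bp in KO DMSO, 399, 460 and 283 bp in SCR dexamethasone and 0 in SCR DMSO. Regions at chr9:114898576-114899067 and chr9:114901076-114901889 were covered in KO libraries only, in 5 and 4 of the 6. Of the bins in the window, chr9:114910001-114910500 met the all-or-none rule, absent in SCR DMSO and present in all 9 other libraries.

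The TNFSF8 call held without any 1 of the 12 libraries. It ended on a linear scale, chosen after seeing the data (-0.84 kb, limma adjusted p = 0.946), and with only the peaks at or above each library's median fold enrichment (log2 -0.72, limma adjusted p = 0.999).

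NNMT (hg38 chr11:114257806-114313536) had 0 kb in all 3 KO dexamethasone and all 3 KO DMSO libraries, 2.09, 2.54 and 3.23 kb in SCR dexamethasone and 0.337, 0 and 0 kb in SCR DMSO. The 3 SCR dexamethasone libraries stood above the other 9, of which 8 had no peak in the window. NNMT thus met the rule of at least 3 covered libraries only through SCR dexamethasone, the group where it was high. The log2 difference was -2.64 ± 0.32 (SE, limma adjusted p = 0.0307). Nearly all of it lay in 1 region near the lower-coordinate end of the gene, chr11:114257985-114261456, covered by 2093, 2537 and 2863 bp in SCR dexamethasone and 337, 0 and 0 bp in SCR DMSO. Its fold enrichment was 2.64, 2.65 and 2.75 in SCR dexamethasone and 2.48 in the SCR DMSO library that had it. Within that region 4 adjoining bins, chr11:114259001-114261000, were present only in SCR dexamethasone, with 1809, 2000 and 1847 bp covered and 0 in the other 9 libraries. The call ended under many settings, among them a 100 kb window (log2 -0.58), and it held when SCR dexamethasone library 1 was left out but not when any of the other 11 was (limma adjusted p of 0.0722 to 0.253).

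**Figure D2:**
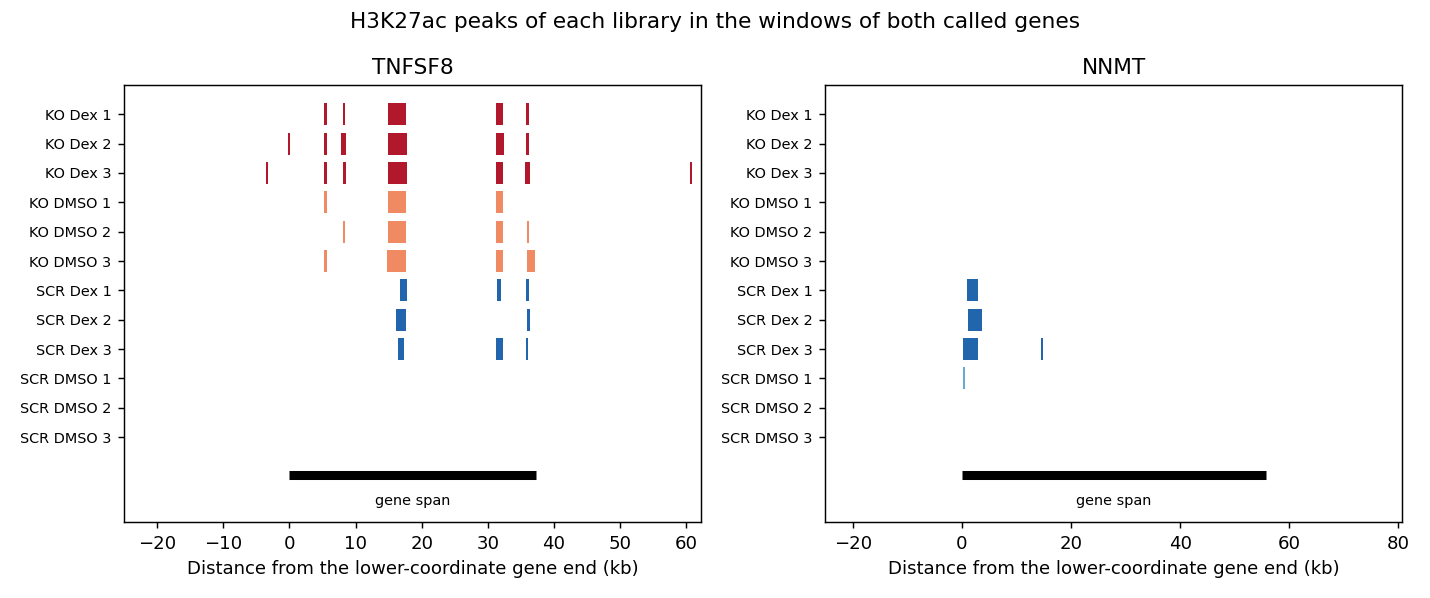
Peaks in the windows of TNFSF8 and NNMT, 1 row per library from KO dexamethasone at the top to SCR DMSO at the bottom. The horizontal axis is the distance in kb from the lower-coordinate gene end, and the black bar is the gene span. TNFSF8 has peaks in the 6 KO and 3 SCR dexamethasone rows and none in SCR DMSO, and NNMT has wide peaks in the SCR dexamethasone rows only.

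The window of NNMT overlaps that of ZBTB16, which encodes the zinc finger repressor PLZF and is a textbook glucocorticoid target. ZBTB16 (chr11:114059711-114256770), named after its values were seen, was covered over 3.98, 2.67 and 3.36 kb in KO dexamethasone, 0 kb in each KO DMSO library, 14.1, 9.49 and 12.7 kb in SCR dexamethasone and 0.644, 0 and 1.30 kb in SCR DMSO. In both genotypes every dexamethasone library exceeded every DMSO library. The mean response was 3.34 kb in KO cells and 11.4 kb in SCR cells, and on the log2 scale 2.93 and 3.80, a difference of -0.87 ± 0.50 that did not pass (SE, limma adjusted p = 0.946). The bin chr11:114187001-114187500 was present only in SCR dexamethasone, with 500, 342 and 273 bp covered and 0 in the other 9 libraries. The 4 bins at chr11:114259001-114261000, described for NNMT, also lie in the window of ZBTB16. The windows of NNMT and ZBTB16 are therefore not independent.

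TNFSF8 was 1 of 17 tested members of the tumour necrosis factor ligand list, and the other 16 did not pass (limma, background 0.0117% of all tested genes). The list was chosen with earlier results of these data known, so its holding TNFSF8 is no result about the family. TNFSF4, which encodes OX40 ligand and was named after its values were seen, had the largest positive difference of the list. It was covered over 10.6, 8.79 and 12.3 kb in KO dexamethasone, 3.86, 8.20 and 8.25 kb in KO DMSO, 10.2, 2.79 and 5.48 kb in SCR dexamethasone and 11.5, 9.73 and 6.00 kb in SCR DMSO. The SCR groups overlapped, and the log2 difference was 1.28 ± 0.52 (SE, limma adjusted p = 0.894). LTA, the gene of lymphotoxin alpha, had a log2 difference of 0.42 ± 0.17, and TNFSF15, the neighbour of TNFSF8, had one of 0.56 ± 0.46 with all 6 SCR libraries at 0; neither passed.

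The 15 genes of smallest p with a positive difference did not pass in the main test (log2 0.60 to 1.86, limma adjusted p of 0.288 to 0.560). They are given as values. In 12 of them the KO response was positive and the SCR response negative on the log2 scale, in 2 both were positive, and in ADGB the SCR response was 0. The SCR response was the larger in size in 11 of the 15. The pattern bins in their windows numbered 15 with a positive and 1 with a negative difference, in 7 of the 15 windows, against 7.78% of all tested windows that held any. These genes were picked by the same contrast, so neither the signs of the responses nor the bins add anything to it.

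PLD1, the gene of phospholipase D1, which makes phosphatidic acid, was covered over 3.36, 3.45 and 2.11 kb in KO dexamethasone, 1.70, 1.87 and 2.83 kb in KO DMSO, 0.420, 0.306 and 0.341 kb in SCR dexamethasone and 2.69, 1.98 and 1.28 kb in SCR DMSO. The SCR groups did not overlap and the KO groups did, and the log2 difference was 1.86 ± 0.31 (SE, limma adjusted p = 0.288). A region at chr3:171709512-171710701 was covered in the 6 KO libraries, by 535 to 1166 bp, and in no SCR library.

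ADGB encodes androglobin, a globin-domain protein. It had 1.45, 0.950 and 1.34 kb in KO dexamethasone and 0 in the other 9 libraries, all in a single region 12.1 to 10.6 kb outside the gene's lower-coordinate end, chr6:146586877-146588381. The fold enrichment there was 4.14, 5.18 and 3.72. ADGB met the rule of at least 3 covered libraries only through KO dexamethasone, the group where it was high. With a log2 difference of 1.80 ± 0.31 (SE) it missed the threshold in the main test (limma adjusted p = 0.288), and it passed without a gene filter (limma adjusted p = 0.0202) and in limma with its trend and robust options off (adjusted p = 0.0149).

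RNF213, which encodes a large ubiquitin ligase, was covered over 8.62, 9.41 and 9.48 kb in KO dexamethasone, 8.20, 6.43 and 10.3 kb in KO DMSO, 5.70, 4.76 and 4.71 kb in SCR dexamethasone and 9.96, 9.10 and 9.01 kb in SCR DMSO. The SCR dexamethasone libraries were the lowest 3 of the 12. The log2 difference was 0.99 ± 0.17 (SE, limma adjusted p = 0.288).

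CRLS1, the cardiolipin synthase gene, was covered over 5.65, 4.08 and 4.52 kb in KO dexamethasone, 2.74, 3.39 and 4.50 kb in KO DMSO, 2.96, 2.82 and 2.21 kb in SCR dexamethasone and 6.87, 5.73 and 8.57 kb in SCR DMSO. All SCR DMSO libraries lay above the other 9 (log2 difference 1.59 ± 0.28 SE, limma adjusted p = 0.288). Much of that lay at chr20:6041134-6046177, with 2791, 0 and 0 bp in KO dexamethasone, 0, 620 and 371 bp in KO DMSO, 0, 399 and 0 bp in SCR dexamethasone and 1958, 2903 and 2357 bp in SCR DMSO.

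PTPN3 encodes a protein tyrosine phosphatase. Its region chr9:109414080-109416878 was covered by 2645, 2440 and 2282 bp in KO dexamethasone, 2317, 2424 and 2467 bp in KO DMSO, 740, 551 and 877 bp in SCR dexamethasone and 1982, 2173 and 2152 bp in SCR DMSO. The peak was narrow in SCR dexamethasone alone, and 2 bins in it, chr9:109414501-109415500, were absent only there. Over the window the log2 difference was 1.16 ± 0.22 (SE, limma adjusted p = 0.429).

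RAB21, the gene of an endosomal GTPase, had 3.27, 3.25 and 3.09 kb in KO dexamethasone, 1.62, 1.4 and 1.5 kb in KO DMSO, 1.30, 1.47 and 1.39 kb in SCR dexamethasone and 1.80, 1.35 and 1.43 kb in SCR DMSO. The 3 KO dexamethasone libraries stood above the other 9, and the bins at chr12:71779501-71780500 were covered over 1000, 1000 and 1000 bp in them and 0 elsewhere. The log2 difference was 0.91 ± 0.19 (SE, limma adjusted p = 0.502).

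MED12L, a Mediator subunit gene, likewise had its highest values in KO dexamethasone, with 8.20, 11.7 and 9.26 kb, against 4.29, 4.34 and 5.95 kb in KO DMSO, 5.47, 3.84 and 4.55 kb in SCR dexamethasone and 7.16, 5.32 and 4.26 kb in SCR DMSO. Its log2 difference was 1.14 ± 0.24 (SE, limma adjusted p = 0.498). The bin chr3:151203001-151203500 was present only in KO dexamethasone. It holds the promoter of another gene, GPR171, at chr3:151203167-151203466. That promoter was covered by 300, 239 and 300 bp in KO dexamethasone and by 0 in every other library, so the bin is not particular to MED12L.

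Differences of the same sign were also found at FMNL3, an actin-nucleating formin (0.94), ADAM23, an adhesion protein of neurons (0.71), PRPF38A, a splicing factor (1.64), ACADS, a fatty acid oxidation enzyme (1.44), ABCE1, a ribosome recycling factor (0.83), CAPN5, a calpain protease (1.32), and MAST4, a kinase (0.60), all in log2 units. GPR89A (1.59) has a near-identical copy in the genome, so its value is uncertain. With only the stronger peaks, those at or above each library's median fold enrichment, the sign turned at RNF213 (-0.16), FMNL3 (-0.07), ADAM23 (-0.34), PRPF38A (-0.03) and ACADS (-0.08).

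**Figure D3:**
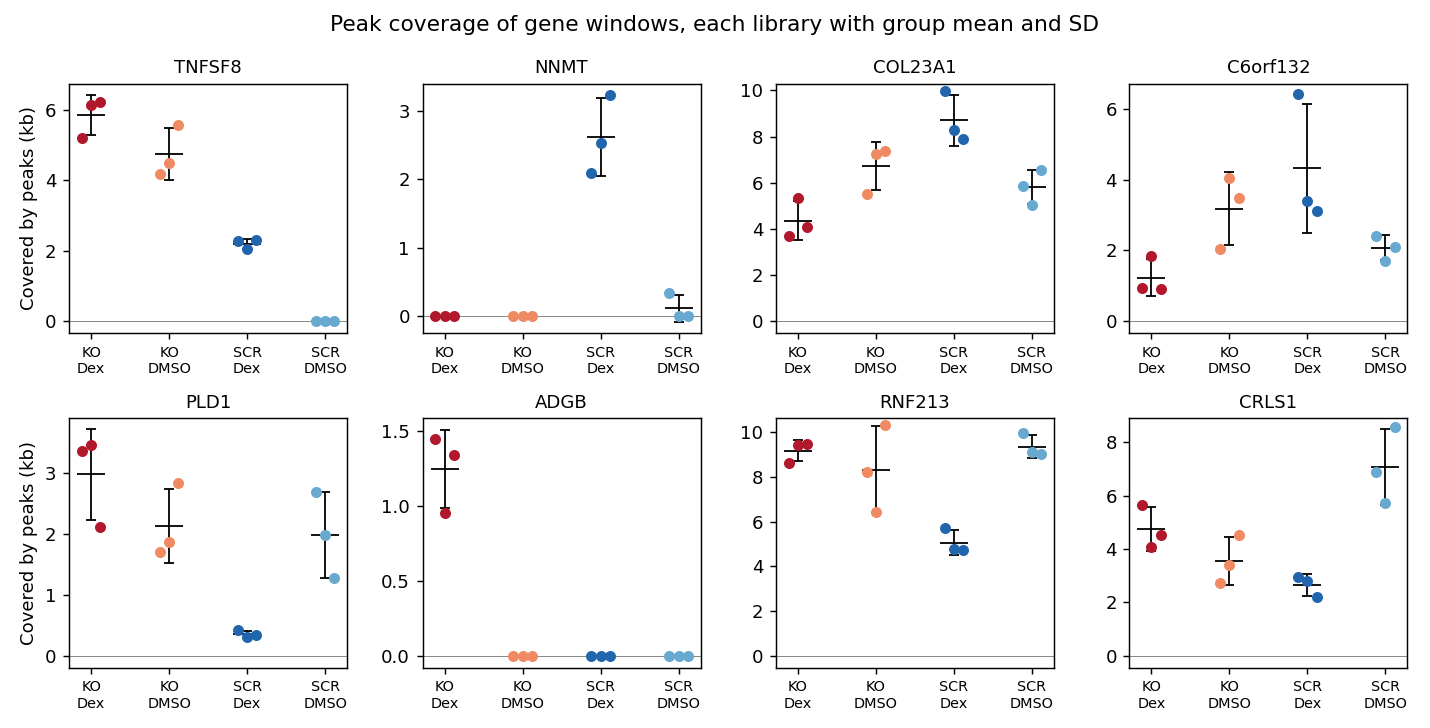
Length covered by peaks, in kb, in the windows of the 4 lower genes of smallest p (top row) and the 4 higher genes of smallest p (bottom row). Each point is a library, and the bar and whiskers give the group mean and SD (n = 3). NNMT is covered in SCR dexamethasone and ADGB in KO dexamethasone, whereas RNF213 is lowest in SCR dexamethasone.

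Besides TNFSF8 and NNMT, 13 genes made up the 15 of smallest p with a negative difference, and none of those 13 passed in the main test. Over the 15, the KO response was negative and the SCR response positive in 11, both were positive in 1 and both negative in 1, and a response was 0 in NNMT and CD44. Their windows held 0 pattern bins with a positive and 8 with a negative difference, in 4 of the 15, against 7.78% of all tested windows that held any. These genes too were picked by the same contrast, so neither the signs of the responses nor the bins add anything to it.

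COL23A1, which encodes a transmembrane collagen, was covered over 3.68, 5.33 and 4.08 kb in KO dexamethasone, 5.53, 7.26 and 7.39 kb in KO DMSO, 9.97, 8.29 and 7.89 kb in SCR dexamethasone and 5.85, 5.05 and 6.54 kb in SCR DMSO. Neither pair of groups overlapped, and the drug and DMSO groups were in opposite order in the genotypes (log2 difference -1.13 ± 0.20 SE, limma adjusted p = 0.288). It passed with only the stronger peaks (log2 -2.27, limma adjusted p = 0.000269), and its sign turned in a 5 kb window (0.45).

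HNRNPAB, an RNA-binding protein gene beside it on chromosome 5, had 6.25, 7.54 and 6.47 kb in KO dexamethasone, 8.39, 11.0 and 11.2 kb in KO DMSO, 12.8, 10.3 and 7.97 kb in SCR dexamethasone and 7.05, 7.16 and 7.68 kb in SCR DMSO. The 2 windows share chr5:178212618-178215819, chr5:178221330-178225096 and chr5:178230907-178233149. The first was covered by 325, 0 and 1321 bp in KO dexamethasone and 1662, 2145 and 2997 bp in KO DMSO. In SCR cells it had 3157, 3012 and 1790 bp with dexamethasone and 605, 1897 and 373 bp with DMSO. The second was covered by 1432, 2575 and 793 bp in KO dexamethasone and 1883, 3302 and 2475 bp in KO DMSO. In SCR cells it had 3765, 2383 and 1942 bp with dexamethasone and 745, 431 and 3191 bp with DMSO. The third had 1817 to 2107 bp in every library. The 2 genes are therefore not independent. HNRNPAB had a log2 difference of -0.998 ± 0.201 (SE, limma adjusted p = 0.474).

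C6orf132, an uncharacterised gene, was covered over 0.942, 1.85 and 0.910 kb in KO dexamethasone, 2.03, 4.04 and 3.48 kb in KO DMSO, 6.43, 3.40 and 3.13 kb in SCR dexamethasone and 2.42, 1.70 and 2.11 kb in SCR DMSO. Its groups again ran in opposite order without overlap (log2 difference -1.995 ± 0.356 SE, limma adjusted p = 0.288).

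CD44, the gene of the hyaluronan receptor, had 0, 0.274 and 0.427 kb in KO dexamethasone, 1.70, 1.79 and 1.65 kb in KO DMSO and 0 in the 6 SCR libraries. A run of 2 bins, chr11:35144501-35145500, was present only in KO DMSO. The log2 difference was -1.66 ± 0.37 (SE, limma adjusted p = 0.548).

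RBFA, which encodes a factor of mitochondrial ribosome assembly, had 2.21, 2.32 and 1.51 kb in KO dexamethasone, 3.78, 3.47 and 4.54 kb in KO DMSO, 2.12, 1.54 and 1.56 kb in SCR dexamethasone and 1.86, 1.56 and 1.58 kb in SCR DMSO. The KO DMSO libraries stood above the other 9. Its log2 difference was -0.92 ± 0.20 (SE, limma adjusted p = 0.542), with the sign turned in a 100 kb window (0.10).

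ZMIZ1, a transcriptional coactivator gene, was covered over 13.3, 15.1 and 11.7 kb in KO dexamethasone, 17.4, 18.1 and 20.7 kb in KO DMSO, 24.8, 22 and 20.9 kb in SCR dexamethasone and 22.8, 22.6 and 21.3 kb in SCR DMSO. Only the KO groups did not overlap (log2 difference -0.55 ± 0.12 SE, limma adjusted p = 0.568). With only the stronger peaks the sign turned (0.08). The remaining lower genes were MMP17, a membrane-anchored metalloproteinase (log2 -1.75), LY6E, a cell surface protein (-1.09), NCKAP5L, a centrosomal protein (-1.33), ADIPOQ, the hormone adiponectin (-2.23), CPLX1, a regulator of vesicle fusion (-0.89), ADAM32 (-2.25) and UQCRHL (-3.01), which is a near-identical copy of UQCRH and therefore uncertain. LY6E turned to 0.01 with only the stronger peaks and CPLX1 to 0.07 in a 100 kb window.

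Of 47 genes known to be induced by glucocorticoids, 46 were tested and none passed (limma, background 0.0117%), 22 with a positive and 24 with a negative difference and a median log2 difference of -0.02, beside -0.01 over all tested genes. At an unadjusted limma p under 0.05 there were 3, STOM, BCL2L11 and TSC22D3 (5.3% of all tested genes). Pattern bins lay in 7 of the 46 windows and in 7.78% of all tested windows.

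TSC22D3 encodes GILZ, a glucocorticoid-induced leucine zipper protein, and was named after its values were seen. It was covered over 6.97, 8.26 and 7.30 kb in KO dexamethasone, 5.95, 5.69 and 7.63 kb in KO DMSO, 12.0, 11.6 and 11.1 kb in SCR dexamethasone and 6.46, 7.43 and 6.81 kb in SCR DMSO. The 3 SCR dexamethasone libraries stood above the other 9, and the KO groups overlapped. The log2 difference was -0.48 ± 0.17 (SE, limma adjusted p = 0.820). A run of 3 bins at chrX:107690001-107691500 was covered by 1299, 1361 and 1286 bp in SCR dexamethasone and 0 in the other 9 libraries, and the bin chrX:107721001-107721500 by 333, 315 and 298 bp in the same 3 and 0 in the others.

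FKBP5, the immunophilin that restrains the glucocorticoid receptor, had bins of the opposite sign. Named after its values were seen, it was covered over 8.26, 11.1 and 8.58 kb in KO dexamethasone, 6.34, 4.77 and 6.93 kb in KO DMSO, 9.72, 8.47 and 10.2 kb in SCR dexamethasone and 7.90, 5.70 and 6.97 kb in SCR DMSO. The drug libraries exceeded the DMSO libraries in both genotypes, and the log2 difference was 0.17 ± 0.19 (SE, limma adjusted p = 0.991). The bin chr6:35611001-35611500 was covered by 480, 473 and 460 bp in KO dexamethasone and 0 in the other 9 libraries.

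BCL2L11, which encodes the pro-apoptotic protein BIM, was covered over 10.2, 9.70 and 8.79 kb in KO dexamethasone, 7.68, 8.76 and 7.62 kb in KO DMSO, 9.92, 10.3 and 11.4 kb in SCR dexamethasone and 11.7, 14.8 and 13.7 kb in SCR DMSO. The KO dexamethasone libraries exceeded those of KO DMSO, and the SCR dexamethasone libraries lay below those of SCR DMSO. The log2 difference was 0.58 ± 0.20 (SE, limma adjusted p = 0.820) and turned to -0.88 with only the stronger peaks. The bin chr2:111158501-111159000 was covered over 500 bp in each SCR DMSO library and 0 elsewhere.

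STOM, the gene of the membrane protein stomatin, was covered over 12.9, 14.6 and 14.2 kb in KO dexamethasone, 12.7, 10.3 and 13.1 kb in KO DMSO, 8.33, 10.5 and 8.50 kb in SCR dexamethasone and 13.1, 12.6 and 12.3 kb in SCR DMSO. The SCR groups did not overlap and the KO groups did (log2 difference 0.68 ± 0.18 SE, limma adjusted p = 0.656). It turned to -0.06 with only the stronger peaks. Single pattern bins also lay at the chemokine receptor gene CXCR4 and the interleukin 1 receptor gene IL1R1, both counted as present only in SCR dexamethasone. Another lay at SMAP2, a regulator of vesicle traffic, present only in KO dexamethasone. The CXCR4 bin was also covered by 189, 240 and 17 bp in KO dexamethasone, under the 250 bp asked for, and by 0 in the DMSO libraries. Over its window the log2 response of CXCR4 was 0.59 in KO cells and 0.51 in SCR cells. The IL1R1 bin had 220, 6 and 0 bp in SCR DMSO.

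The other lists had no call. The difference at the receptor gene NR3C1 was 0.30 ± 0.23 and at CEBPB 0.16 ± 0.20 on the log2 scale (SE, neither past the limma threshold), and CEBPB turned to -0.11 in a 5 kb window. Of the 7 tested C/EBP genes 6 had a positive and 1, DDIT3, a negative difference (-0.42). Among 20 genes of the receptor and its coregulators the coactivators NCOA3 (0.74) and EP300 (0.53) had the smallest p, and a bin at EP300, chr22:41109501-41110000, was present only in SCR DMSO with 339, 400 and 388 bp. Of 28 NF-κB and inflammatory genes 14 were positive and 14 negative. The immediate early and AP-1 list had 6 positive and 14 negative, with FOSL2, an AP-1 subunit, at -0.99 ± 0.37, a value that turned to 2.68 with only the stronger peaks. Of the other lists, the writers, erasers and readers of H3K27 acetylation had 8 positive and 5 negative of 13 tested, the unfolded protein response 11 and 12 of 23, cell cycle genes 9 and 16 of 25 and housekeeping genes 11 and 13 of 24.

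Among 29 tested plasma cell and myeloma genes, 15 were positive and 14 negative. IKZF1, which encodes the lymphoid transcription factor Ikaros, had 12.8, 14.5 and 12.9 kb in KO dexamethasone, 12.7, 10.1 and 15.9 kb in KO DMSO, 11.0, 7.34 and 8.53 kb in SCR dexamethasone and 16.8, 14.05 and 12.7 kb in SCR DMSO. The SCR groups did not overlap (log2 difference 0.75 ± 0.18 SE, limma adjusted p = 0.590), and the sign turned to -0.02 at equal covered length and to -0.70 with only the stronger peaks. TNFRSF17 had 6.40, 6.35 and 7.03 kb in KO dexamethasone, 8.15, 10.6 and 9.89 kb in KO DMSO, 6.29, 6.06 and 6.49 kb in SCR dexamethasone and 6.76, 6.23 and 5.78 kb in SCR DMSO, highest in KO DMSO (log2 difference -0.51 ± 0.18 SE, limma adjusted p = 0.838). A bin near XBP1, the plasma cell transcription factor of the unfolded protein response, at chr22:28819501-28820000, was covered by 297 to 482 bp in 9 libraries and 0 in the 3 SCR DMSO libraries.

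The apoptosis regulators of the BCL2 family were 7 positive and 8 negative among 15 tested, with a median of -0.02. Within the window of BMF, a pro-apoptotic member, chr15:40103501-40104500 was covered over all 1000 bp in 9 libraries and 0 in the 3 SCR DMSO libraries. BCL2 itself had 3 positive and 2 negative bins. One of the negative bins, chr18:63285001-63285500, was covered over 500 bp in each KO DMSO library and 0 elsewhere, and one of the positive ones, chr18:63186501-63187000, over 500 bp in each KO dexamethasone library, 69 bp in each KO DMSO library and 0 in SCR cells. Over the windows neither gene passed, with log2 differences of -0.12 for BMF and 0.06 for BCL2.

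The 4 lists of other cell types, the T cell, myeloid, mature B cell and stromal or epithelial markers, had 13, 13, 13 and 7 tested members and no call. TRAT1, MARCO, TCL1A and the stromal genes COL1A2, COL3A1, DCN and LUM were at 0 in every library. Summed coverage of the T cell markers ran from 71.7 to 88.5 kb in KO dexamethasone, 78.5 to 93.0 kb in KO DMSO, 63.4 to 76.8 kb in SCR dexamethasone and 67.7 to 80.2 kb in SCR DMSO. For the myeloid markers the ranges were 58.2 to 65.8, 61.2 to 77.5, 56.2 to 63.6 and 61.2 to 66.1 kb in the same order of groups. Those of the mature B cell markers were 67.6 to 71.7, 75.7 to 85.1, 68.2 to 79.3 and 73.3 to 85.8 kb, and those of the stromal and epithelial markers 51.6 to 54.2, 50.7 to 54.5, 43.9 to 49.97 and 41.1 to 54.5 kb. Fewer cells of a type and less signal per cell cannot be told apart in bulk libraries, and a part of other cells in the differences was not tested.

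**Figure D4:**
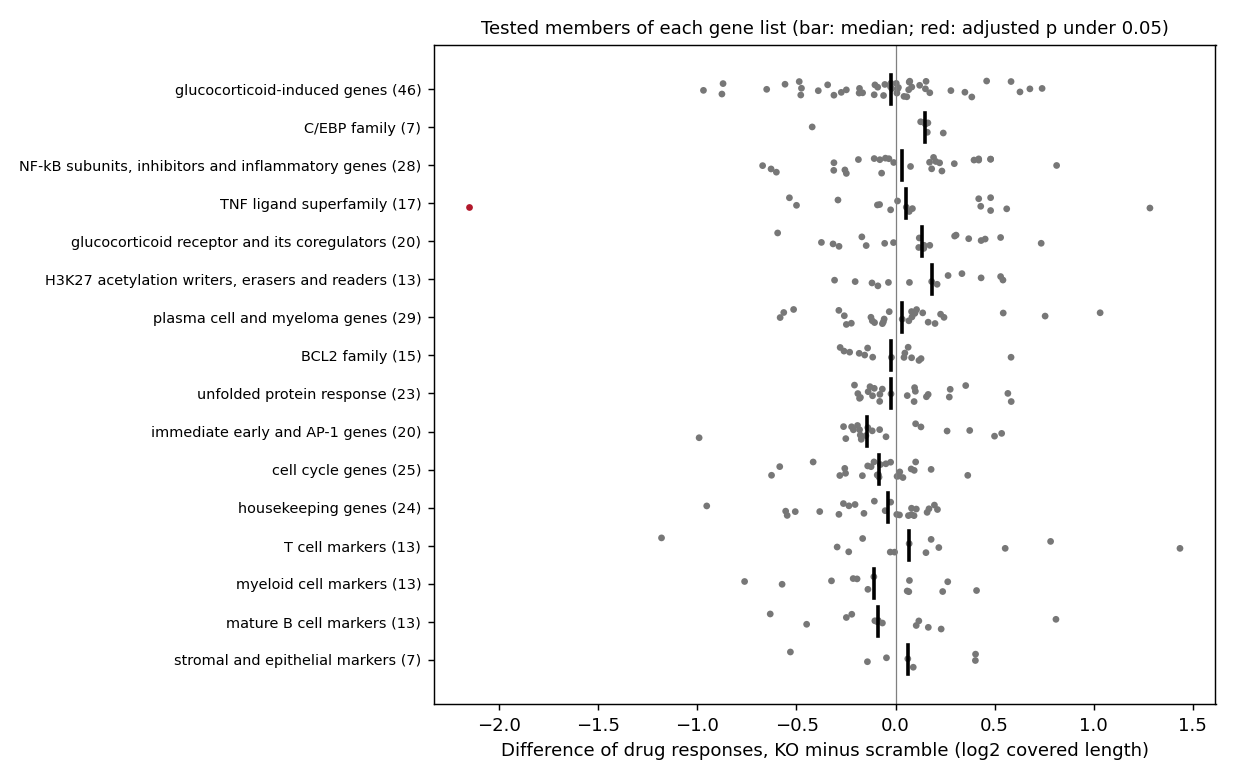
Difference of drug responses of every tested member of each gene list, with the number tested in parentheses, on the log2 covered-length scale, KO minus SCR. The black bar is the list's median. TNFSF8, the red point at -2.15, is the only list member past the threshold, and the medians lie between -0.14 and 0.18.

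At the scale of bins, 768 of 292998 (0.262%) were present in all or in none of the libraries of every group with a positive difference, and 771 (0.263%) with a negative one, so both directions were about equally common among these all-or-none patterns. A bin was present where at least 250 bp were covered. Most patterns involved presence in a single group. In 298 bins the peak was present only in KO dexamethasone, in 281 only in KO DMSO, in 279 only in SCR dexamethasone and in 292 only in SCR DMSO. Absence from a single group was rarer, with 95 bins absent only in KO dexamethasone, 54 only in KO DMSO, 116 only in SCR dexamethasone and 111 only in SCR DMSO. A reversal of the drug response between the genotypes was found in 13 bins, 8 present only in KO dexamethasone and SCR DMSO and 5 present only in KO DMSO and SCR dexamethasone. Counting libraries without the all-or-none rule, the number of libraries with the bin gave a difference of 3 or more in 1.67% of bins, of -3 or less in 1.62% and of 0 in 32.0%.

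**Figure D5:**
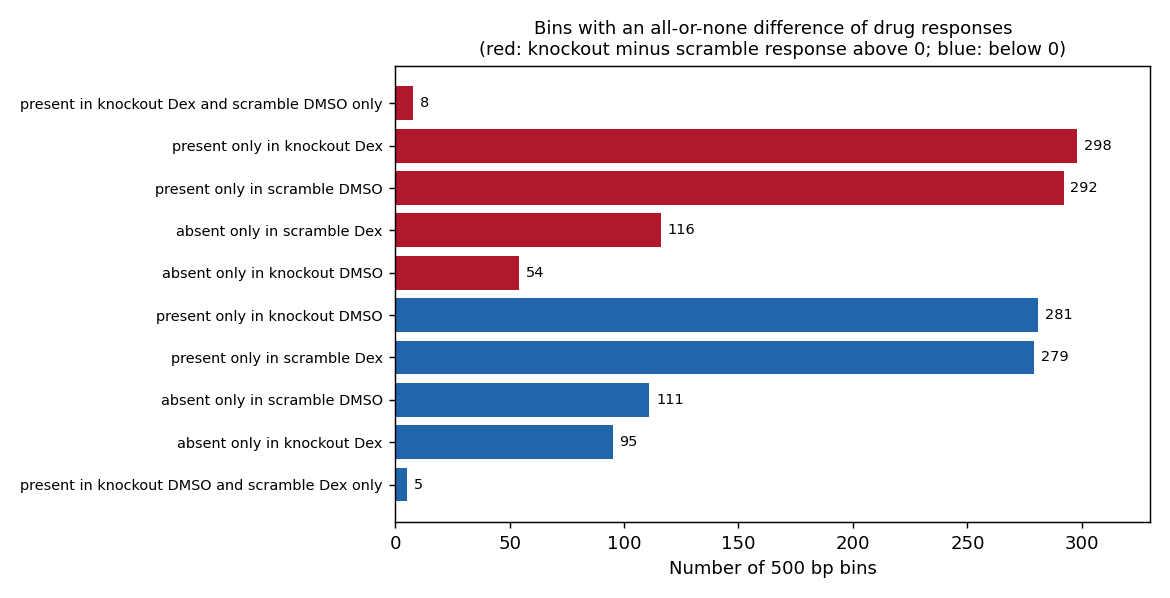
Number of 500 bp bins in each all-or-none pattern, with the count beside each bar. Red bars are patterns with a KO minus SCR difference above 0 and blue bars those with one below 0, whichever genotype gained or lost the peak. The 4 patterns of presence in 1 group alone are the longest bars, with 279 to 298 bins each.

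Within 1 kb of a gene end lay 9.38% of the positive and 9.73% of the negative pattern bins, beside 22.8% of all bins present in at least 3 libraries. The median fold enrichment was 3.19 and 3.21 for the 2 kinds and 3.39 for those bins. The latter include bins present in every library, which cannot be pattern bins, so the sets differ by construction. By pattern, the share near a gene end was 5.38% to 10.3% for bins present only in 1 group. For bins absent only in 1 group it was 12.9% to 14.8%. Among chromosomes, positive patterns ran from 1.46 per 1000 bins on chromosome 22 to 5.01 on chromosome 8, and negative ones from 1.60 on chromosome 7 to 5.53 on chromosome 13. The counts depend on every library: leaving out 1 library of a group relaxed the rule for that group and gave 1000 to 2436 positive and 1030 to 2120 negative bins, with the positive share between 33.7% and 70.0%.

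The longest runs of adjoining pattern bins were 2 to 3 kb. One of 3 kb, at chr18:39943501-39946500, was covered over 156, 124 and 231 bp in KO dexamethasone and all 3000 bp in the other 9 libraries, 2009 kb from the nearest gene, PIK3C3. In the gene TMTC1, a mannosyltransferase of the endoplasmic reticulum, the 2.5 kb at chr12:29741501-29744000 were covered over 0 bp in the 6 KO libraries, 2473, 2409 and 2409 bp in SCR dexamethasone and 50, 66 and 105 bp in SCR DMSO. The 2 kb at chr20:14831001-14833000 in MACROD2, an ADP-ribose hydrolase gene, were likewise covered over 1932, 2000 and 1952 bp in SCR dexamethasone, against 0 in the 6 KO libraries and 192, 0 and 0 bp in SCR DMSO. Over their whole windows both genes had log2 differences of the opposite sign, 0.29 ± 0.38 for TMTC1 and 0.07 ± 0.18 for MACROD2 (SE, neither past the limma threshold). Mean coverage of the TMTC1 window was 2.10 kb in KO dexamethasone, 1.58 kb in KO DMSO, 45.9 kb in SCR dexamethasone and 44.0 kb in SCR DMSO. For MACROD2 the means were 13.7, 13.9, 53.1 and 58.8 kb in the same order. Both windows thus had little coverage in KO cells beside SCR cells, with or without the drug.

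In KO dexamethasone alone, 2 kb were fully covered in all 3 libraries at chr1:246216501-246218500 in SMYD3, a lysine methyltransferase gene, with 138, 132 and 131 bp in KO DMSO and 0 in the 6 SCR libraries. A like run lay at chr21:35228501-35230500, 179 kb from RUNX1, a transcription factor gene of blood cells, with 2000 bp in each KO dexamethasone library and 0 in the other 9. The window of SMYD3 had 6 positive bins and a log2 difference of 0.55 ± 0.17 (SE, limma adjusted p = 0.740).

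The longest reversed run lay in ADAM23, at chr2:206480501-206482000. All 1500 bp were covered in each KO dexamethasone and each SCR DMSO library, and 0 bp in each KO DMSO and each SCR dexamethasone library. The fold enrichment was 3.46, 3.32 and 3.51 in KO dexamethasone and 3.07, 4.03 and 3.41 in SCR DMSO. Over its whole window ADAM23 had 16.8, 18.0 and 19.1 kb in KO dexamethasone, 14.8, 14.1 and 16.9 kb in KO DMSO, 18.0, 14.3 and 17.4 kb in SCR dexamethasone and 28.2, 19.9 and 24.4 kb in SCR DMSO.

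Further long runs stood in KO DMSO alone at SMC4, a condensin subunit (chr3:160407501-160409000), and at TBC1D14, a regulator of autophagy (chr4:6938501-6940000), each with 1500 bp in all 3 libraries and 0 bp in KO dexamethasone. A run absent only in SCR DMSO spanned 2 kb at chr13:113491501-113493500, within SLC9D1 and overlapping the higher-coordinate end of DCUN1D2. It had 2000 bp in 9 libraries and 358, 237 and 311 bp in SCR DMSO. Another of 1.5 kb lay in ISCU, a scaffold of iron-sulfur cluster assembly, with 1500 bp in 9 libraries and 82, 72 and 62 bp in SCR DMSO. In the transcription factor gene BNC2 1.5 kb were absent only in KO DMSO (7, 74 and 0 bp, with 1500 bp in the other 9 libraries). A run of 1.5 kb in MAN2A1, a Golgi mannosidase gene, was absent only in KO dexamethasone, with 0 bp there and 1500 bp in the other 9.

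Measures of the whole peak list had differences of drug responses within the spread between libraries. The covered length was 54.4 ± 4.0 Mb in KO dexamethasone, 58.2 ± 5.5 Mb in KO DMSO, 52.7 ± 6.2 Mb in SCR dexamethasone and 58.9 ± 6.8 Mb in SCR DMSO (SD, n = 3), a difference of responses of 2.43 Mb (exact two-sided permutation within genotype, p = 0.73). The number of peaks differed by 2470 (exact p = 0.685), the median peak width by -6.67 bp (exact p = 0.805) and the share of peaks within 1 kb of a gene end by -1.3 percentage points (exact p = 0.555). Adjusted over these 4 measures, the exact p was 0.805 for each. The permutation exchanged drug labels within each genotype, so its null was no drug effect in either genotype and not merely equal responses.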

How the data were processed

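H3K27ac CUT&RUN of RPMI 8226 cells was deposited as 1 list of broad peaks per library, 12 in all. Bowtie2 2.4.2, MACS3 3.0 and build hg38 are named in the submitters' processing notes, and the control, filters and thresholds of peak calling are not given in the sources used here. The deposited files give each peak's position, counted from 0, and the authors' fold enrichment, a ratio to background. They also give −log10 p and −log10 q values from the authors' peak caller, and a deposited score that equalled 10 times the −log10 q in every peak. Read counts were not used here, so depth is unknown and no counting interval is given.

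Covered base pairs were summed over RefSeq protein-coding gene spans with 25 kb on each side, taken as log2(base pairs + 500), quantile normalised and fitted with limma 3.58.1 (R 4.3.3, trend and robust options, 4 groups, 8 residual degrees of freedom). Genes covered in at least 3 libraries were tested, with Benjamini-Hochberg adjustment and a threshold of 0.05. The test was tried on simulated data. A 500 bp bin was present when 250 bp were covered, and the all-or-none rule asked for all or none of each group's 3 libraries. Library measures had exact permutation tests over 400 arrangements within genotype. Promoters and a linear scale were added after seeing the data.

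The members and gene lists were chosen with earlier results of these data known. Named genes were the 15 of smallest p in each direction (1 kept of windows overlapping by over 50%), CEBPB, NR3C1, up to 2 per list and the 3 longest runs of each bin pattern; TSC22D3, FKBP5, ZBTB16, TNFSF4, TNFSF15 and bins in list genes were named outside that rule after their values were seen. The labels do not say whether replicate numbers pair libraries. Correlations of same-numbered libraries' deviations were -0.08 to 0.10 over 18 pairs, which does not settle whether they shared a culture or day. Alternatives covered window, offset, normalisation, filter, covered length, peak strength, limma options, replicate block, bin size and leaving out each library. Coverage and bins were computed in Python 3.11.15 with SciPy 1.17.1, pandas 2.3.3 and NumPy 2.4.6, and figures drawn with Matplotlib 3.10.9.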

Additional observations from a re-analysis of the deposited data

Results flagged for a closer look

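TNFSF8 stood out because the drug responses of the genotypes differed in the interaction test, with a log2 difference of -2.15 (KO minus SCR) and every SCR DMSO library listed at 0. NNMT stood out for the same reason, with -2.636, and here all 6 KO libraries were listed at 0.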

How the results depend on the processing

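The count of genes whose response differed was 2. It was 1 with an offset of 100 bp, without normalisation, with scaling to the library total and when weighted by fold enrichment. It was also 1 with coverage asked for in at least 6 libraries and at equal covered length, where NNMT was not tested. It was 7 without a gene filter, of which 4 were higher and 3 lower, and 0 on the linear scale chosen after seeing the data, where limma had 898 genes at an unadjusted p under 0.05. With only the peaks at or above the median fold enrichment it was 3, COL23A1 (lower), PTPRN2 and TMPRSS11A (higher). There TNFSF8 was not called and NNMT was not tested. In a 100 kb window the count was 2, TNFSF8 and SLC26A7 (higher). With the replicate number as a block it was 1, TNFSF8, and NNMT lost its call (adjusted p = 0.208). Leaving out 1 library gave 1 to 2 genes, -2.22 to -2.09 for TNFSF8 and -2.85 to -2.47 for NNMT. UQCRHL was called without SCR dexamethasone library 3 (-3.71). Signs of single genes turned with only the peaks at or above the median fold enrichment for RNF213 (-0.16), FMNL3 (-0.065), ADAM23 (-0.34), PRPF38A (-0.031), ACADS (-0.075), LY6E (0.0094), ZMIZ1 (0.082), STOM (-0.0645), BCL2L11 (-0.88), IKZF1 (-0.70), MANF (-0.25), FOSL2 (2.68), IER5 (-0.18), TOP2A (0.024), RPLP0 (0.026), PPIA (0.066), FCN1 (-0.62) and CIITA (0.55). They turned in a 5 kb window for COL23A1 (0.45), CEBPB (-0.11), HDAC3 (-0.045), MANF (-0.088), TOP2A (0.070), RPLP0 (0.030), CD79B (-0.77) and COL1A1 (-0.051). In a 100 kb window they turned for RBFA (0.099), CPLX1 (0.073) and CD79B (-0.0057), and at equal covered length for IKZF1 (-0.017). The cause was not tested. Over all named genes, 1404 values kept direction and side of the threshold, 4 passed it newly, 20 lost it and 30 turned. Only the 2 called genes could lose a call, and NNMT lost it in 18 settings and TNFSF8 in 2. The other named genes had no call to keep, so the 1404 does not measure how stable the calls are. A kept value could also shrink, as UQCRHL did from -3.01 to -0.02 in a 100 kb window. Positive and negative pattern bins numbered 1600 and 1526 at 250 bp, 362 and 346 at 1000 bp and 502 and 414 with only the stronger peaks, and any covered base gave 1204 positive bins. Smaller bins are more numerous by construction. Leaving out 1 library gave 1000 to 2436 positive and 1030 to 2120 negative bins. For the library measures the difference ran from -1.33 to 5.93 Mb in covered length, -149.3 to 5473 in peaks, -20 to 9.5 bp in width and -2.40 to -0.31 points in peaks at gene ends. Width was 12.67 bp with only the stronger peaks. Unknown depth limits what an absent peak means.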
